A study of Homo sapiens with 4 samples.

Results

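Footprints on the genes that build cholesterol and fatty acids were followed in HEK293 cells, an established line from human embryonic kidney. The set holds 33 genes chosen by symbol from the textbook pathways, with earlier results of these data known. All 33 were listed in the deposited tables, out of 16275 genes, with 1 transcript each, and all 33 passed the filter of 5 RPKM on the mean over libraries that left 9611 genes. RPKM counts reads relative to the length of the coding sequence and to the size of the library. The study crossed the RPL4 genotype, wild type or mutant, with the macrolide erythromycin, given or withheld, an antibiotic known for binding in the exit tunnel of bacterial ribosomes. The 4 groups were wild type without erythromycin, wild type with it, RPL4 mutant without it and RPL4 mutant with it. Each group had 1 library of ribosome-protected RNA. RPL4 encodes a large-subunit protein that lines the exit tunnel. The protocol text names stable lines carrying GFP, wild type RPL4 or a form without a loop, infected with lentivirus for a short hairpin RNA against RPL4 or for a scrambled one. It does not say which of these lines or hairpins each library had, and gives no dose of erythromycin, so the groups are known only by their genotype and treatment labels.

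Cells make cholesterol from acetyl-CoA, first through the mevalonate pathway, which yields isoprenoid units, and then through squalene and a series of sterol intermediates. Fatty acids start from the same acetyl-CoA pool, which ATP citrate lyase supplies in the cytosol. Both routes are controlled by the SREBP transcription factors, which sit in the membrane of the endoplasmic reticulum as precursors. When sterol is short, SCAP escorts them to the Golgi, where they are cut and released to the nucleus. When sterol is ample, the INSIG proteins hold SCAP back. INSIG1, HMGCS1 and IDI1, like other genes of both routes, are themselves SREBP target genes.

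The promoters of 4 members are shown because the results turn on these genes. SREBF2 encodes the SREBP that mainly serves cholesterol synthesis and was the member with the largest footprint difference between the genotypes under erythromycin after TM7SF2. INSIG1, IDI1 and HMGCS1 are 3 of the 4 members whose erythromycin ratio had a counting interval above 0 in both genotypes, and IDI1 was the 1 member past 1.5-fold in both. Each stretch runs 5′ to 3′ on the gene's strand from base 200 to base 81 before the RefSeq start site (GRCh38.p14). For genes with several RefSeq start sites, the site nearest to the start of the deposited transcript was used. Capitals mark a sterol regulatory element, searched as ATCAC, any base and CCAC, and the CCAAT box or its reverse complement ATTGG, the letters that NF-Y binds.
SREBF2, chr22:41832905-41833024, plus strand: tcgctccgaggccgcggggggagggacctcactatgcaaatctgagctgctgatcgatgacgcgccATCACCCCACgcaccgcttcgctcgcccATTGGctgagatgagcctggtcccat
INSIG1, chr7:155297678-155297797, plus strand: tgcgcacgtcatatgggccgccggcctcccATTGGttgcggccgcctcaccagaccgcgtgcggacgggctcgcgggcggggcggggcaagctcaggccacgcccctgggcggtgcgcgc
IDI1, chr10:1049200-1049319, minus strand: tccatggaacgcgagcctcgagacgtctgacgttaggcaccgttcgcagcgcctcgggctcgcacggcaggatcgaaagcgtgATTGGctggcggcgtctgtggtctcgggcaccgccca
HMGCS1, chr5:43313493-43313612, minus strand: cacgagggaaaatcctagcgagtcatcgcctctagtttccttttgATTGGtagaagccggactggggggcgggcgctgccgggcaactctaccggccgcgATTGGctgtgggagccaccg

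The sterol regulatory element in SREBF2 spans bases 134 to 125 before the start site, and its inverted CCAAT box spans bases 106 to 102. HMGCS1 holds 2 inverted CCAAT boxes in the stretch shown, INSIG1 and IDI1 hold 1 each. A RefSeq promoter window of 300 bases was matched by symbol for 29 members and for 7678 of the genes tested. Searched on both strands, the sterol regulatory element was found in 1 of 29 members, SREBF2, and in 10 of 7678 genes (0.130%). CCAAT was found in 22 of 29 members (75.9%) and in 44.4% of the genes tested. The GC box GGGCGG was found in 28 of 29 members (96.6%) and in 79.9%. These are matches of letters in 1 window size, not measured binding.

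The libraries differed in depth, which sets the precision of every value here. The wild type libraries held 2965243 reads (untreated) and 2555613 reads (erythromycin), and the mutant libraries 604506 (untreated) and 993461 (erythromycin). A member had a median of 205, 168, 36 and 59 reads in that order, where the median gene tested had 108, 91, 23 and 40, and 7 members had under 20 reads in the untreated mutant. RPL4 itself was at 2515 and 2586 RPKM in wild type without and with the drug and at 1707 and 1439 RPKM in the mutant. A transgene copy would be read as RPL4, so this checks the labels only in part. Of 8 genes listed as HEK293 traits, VIM, KRT8, KRT18, NEFL and SOX2 were clearly read in each library, PAX2 and LHX1 were low, and NEFM was at 0 in the untreated mutant. Their summed level ran from 1145 RPKM in the mutant with erythromycin to 1915 RPKM in wild type with it, and the part of this difference in the results below was not tested. Of 8 markers of liver, blood, connective and fat cells, the sum was 5.08 to 10.00 RPKM, with PTPRC, DCN and ADIPOQ at 0 throughout. COL1A1 was read in each library, at 3.89 to 6.68 RPKM. In untreated wild type it was at 6.68 RPKM, above PAX2 at 2.69 and LHX1 at 4.14 RPKM. PLIN1 reached 4.49 and CD3E 1.61 RPKM in the mutant with erythromycin. APOA1 reached 2.52 and ALB 0.18 RPKM in untreated wild type.

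Among the members, levels spread over a wide range that was alike in the 4 libraries. In untreated wild type they ran from 8.18 RPKM (ACSS2) over a median of 56.2 to 295.7 RPKM (SCD), and in the mutant with erythromycin from 9.85 (ACSS2) over 55.9 to 413 RPKM (INSIG1). SCD, the desaturase that makes oleate, EBP, a sterol isomerase, FDPS, the farnesyl diphosphate synthase, and FDFT1, the squalene synthase, led in untreated wild type. For 14 of 33 members, all 4 libraries lay within 1.5-fold of each other. The highest library exceeded the lowest by more than 2-fold for 6 members: TM7SF2, SREBF2, SREBF1, HMGCS1, GGPS1 and INSIG1. The shares of all genes tested were not counted for these 2 rules, so the counts only describe the members.

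**Figure D1:**
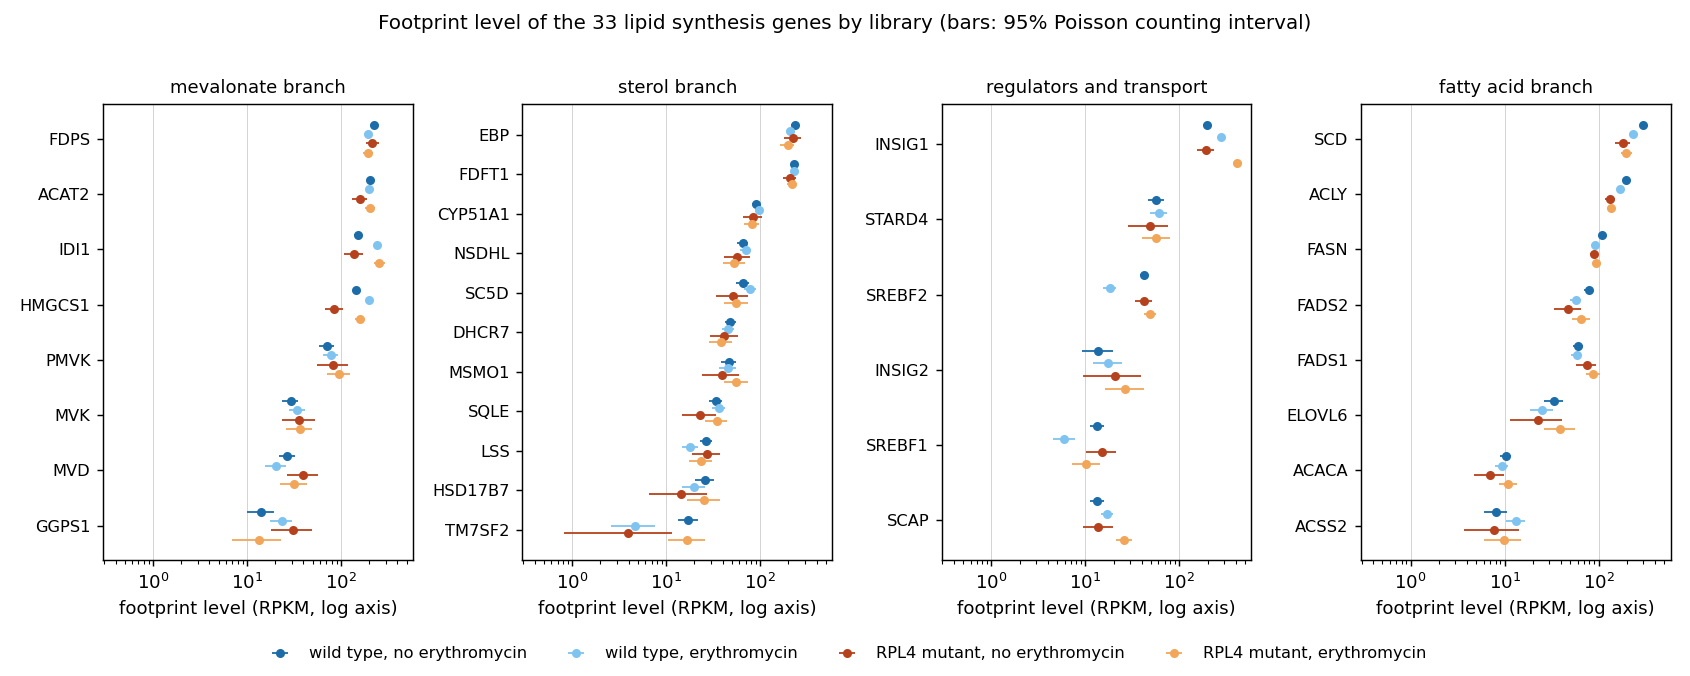
Footprint level in RPKM (log axis) of each of the 33 members in the 4 libraries, grouped by branch, with 95% Poisson counting intervals as bars. For 14 of the 33 members all 4 libraries lie within 1.5-fold, a share not counted over all genes. SREBF2 and SREBF1 are low in wild type with erythromycin, and INSIG1 and IDI1 are high in both erythromycin libraries. TM7SF2 is low in wild type with erythromycin and in the untreated mutant.

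Differences below are log2 ratios of RPKM plus 1, centred on the median gene. Brackets give the 95% exact counting interval of the read ratio, centred alike. With 1 library in each group the single differences have no replicate check, and the intervals cover counting error only. They take each read as an independent molecule, which was not checked. Footprints reflect mRNA amount and translation together, and in a bulk culture fewer cells with an mRNA and fewer footprints per cell cannot be told apart. Counts of higher and lower genes are at 1.5-fold or more, and a value short of that is given with its interval.

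The first comparison asked what erythromycin did to these genes in wild type cells. IDI1 was past 1.5-fold higher with the drug, HMGCS1, INSIG1 and SCAP had intervals above 0 without reaching 1.5-fold, and both SREBP genes were past 1.5-fold lower. ACAT2, MVK, PMVK and MVD, which act earlier than IDI1, were at 0.00, 0.25, 0.15 and −0.36 with intervals that span 0. HMGCS1, which makes HMG-CoA, was at 147 RPKM without and 200 RPKM with erythromycin, a log2 ratio of 0.46 [0.31, 0.61]. IDI1, which isomerises isopentenyl diphosphate, was at 154 and 245 RPKM, a log2 ratio of 0.68 [0.50, 0.88]. INSIG1 was at 198 and 281 RPKM, with a log2 ratio of 0.52 [0.35, 0.70]. The 3 intervals lay wholly above 0. SCAP, the escort protein, was at 13.3 and 17.1 RPKM (0.35 [0.05, 0.70]). GGPS1, the geranylgeranyl diphosphate synthase, was at 14.2 and 23.4 RPKM on 38 and 54 reads (0.70 [0.11, 1.38]). ACSS2, which makes acetyl-CoA from acetate, was at 8.18 and 13.1 RPKM (0.64 [0.16, 1.24]). For SCAP, GGPS1 and ACSS2 the lower end of the interval lay near 0, and GGPS1 rests on few reads.

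SREBF2 was at 41.9 RPKM without and 18.3 RPKM with erythromycin in wild type, on 426 and 160 reads, a log2 ratio of −1.14 [−1.45, −0.92]. SREBF1, which encodes the SREBP that mainly serves fatty acid synthesis, was at 13.4 and 5.98 RPKM on 140 and 54 reads, a log2 ratio of −1.03 [−1.63, −0.68]. Footprints on both precursors were thus at less than the level without the drug by a similar factor, while footprints on SCAP and INSIG1, their partner proteins, were above it. TM7SF2, a sterol reductase of the later pathway, was at 17.2 and 4.67 RPKM on 64 and 15 reads (−1.67 [−2.78, −1.04]).

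In counts, 3 of 33 members were at least 1.5-fold higher in wild type with erythromycin (IDI1, GGPS1 and ACSS2), where 6.29% of all genes tested were. At least 1.5-fold lower were 3 of 33 (TM7SF2, SREBF2 and SREBF1), where 6.52% of all genes were. Either way that is 6 of 33 (18.2%), where 12.8% of all genes were, and at 2-fold 3 of 33, where 3.27% were. The members' median log2 ratio was −0.02, beside 0 for all genes by centring, with 16 above 0 and 17 below, where 50% of genes lie above 0 by centring in this and each later comparison. The counting interval lay above 0 for 6 members (18.2%), where it did for 14.2% of genes, and below 0 for 9 members (27.3%), where it did for 13.9%. The 9 were SREBF1, SREBF2, TM7SF2, LSS, FDPS, SCD, FASN, ACLY and FADS2.

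The fatty acid genes were the branch most often on the lower side in wild type with erythromycin. Of its 8 members 7 were below 0, with a median of −0.22, and ACSS2 was the exception. The differences were small. FASN, the fatty acid synthase, was at 110 RPKM without and 91.1 RPKM with the drug (−0.25 [−0.35, −0.17]). SCD was at 296 and 232 RPKM (−0.34 [−0.48, −0.19]). ACLY, the ATP citrate lyase, was at 194 and 169 RPKM (−0.18 [−0.29, −0.09]). FADS2, a desaturase of polyunsaturated fatty acids, was at 78.8 and 56.9 RPKM (−0.45 [−0.72, −0.19]). None of these 4 reached 1.5-fold, though each interval lay below 0. The mevalonate branch had 6 of 8 above 0, with a median of 0.20, and the sterol branch 5 of 11 above 0, with a median of −0.02.

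In RPL4 mutant cells, INSIG1, IDI1, HMGCS1 and SCAP were past 1.5-fold higher with erythromycin, and the intervals of both SREBP genes spanned 0. INSIG1 was at 190 RPKM without and 413 RPKM with the drug, on 96 and 342 reads, a log2 ratio of 1.06 [0.73, 1.41]. IDI1 was at 137 and 258 RPKM (0.85 [0.46, 1.26]). HMGCS1 was at 84.7 and 159 RPKM (0.85 [0.49, 1.24]). SCAP was at 13.8 and 26.0 RPKM on 32 and 99 reads (0.81 [0.27, 1.48]). All 4 intervals lay above 0, as they did in wild type, and these 2 arms share no library. INSIG2, the second INSIG protein, was at 20.8 and 26.7 RPKM in the mutant on 9 and 19 reads (0.29 [−0.91, 1.64]), which leaves its direction unresolved at this depth. SREBF2 was at 42.0 and 49.1 RPKM (0.17 [−0.21, 0.56]), and SREBF1 at 15.0 and 10.3 RPKM (−0.56 [−1.33, 0.13]).

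Other members in the mutant were less firmly measured. TM7SF2 was at 3.95 RPKM on 3 reads without and 16.8 RPKM on 21 reads with erythromycin (1.80 [0.29, 4.43]), the reverse of wild type. GGPS1 was at 31.1 and 13.4 RPKM on 17 and 12 reads (−1.21 [−2.47, −0.12]), also the reverse of wild type. HSD17B7, a sterol ketoreductase, was at 14.5 and 25.5 RPKM (0.72 [−0.38, 2.04]) and ELOVL6, an elongase of saturated fatty acids, at 22.8 and 39.1 RPKM (0.70 [−0.31, 1.87]). For these 2 the interval spans 0. In counts, 7 of 33 members were at least 1.5-fold higher (21.2%), where 15.4% of all genes were, and 1, GGPS1, was at least 1.5-fold lower, where 10.7% of all genes were. Either way that is 8 of 33 (24.2%), where 26.1% of all genes were, and at 2-fold 3 of 33, where 9.61% were. The counting interval lay above 0 for 5 members, where it did for 7.21% of genes, and below 0 for 1, where it did for 7.7%. The members' median was 0.17, with 22 of 33 above 0, where 50% of genes were. Of the 8 fatty acid genes 7 were above 0, with a median of 0.22, but 0 of the 8 had an interval clear of 0.

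Read across both arms, 4 of 33 members (12.1%) had counting intervals above 0 in both genotypes, where 1.64% of genes tested did. They were HMGCS1, IDI1, INSIG1 and SCAP. Intervals narrow with reads, and the members have more reads than the median gene, so these shares are not at matched depth. The part of depth in them was not tested. By the 1.5-fold rule alone IDI1 was the single member higher in both, where 1.8% of genes were, since INSIG1, HMGCS1 and SCAP were under the threshold in wild type. At least 1.5-fold lower in both were 0 members, where 1.18% of genes were. Above 0 in both were 12 of 33 and below 0 in both 7 of 33, where 25.3% of genes were in each case. With intervals below 0 in both there were 0 members, where 1.41% of genes were found. Intervals on opposite sides of 0 were found for TM7SF2 and GGPS1, where 2.91% of genes had them, and TM7SF2 was the 1 member below 0 in wild type and above 0 in the mutant, where 1.15% of genes were. Over the 33 members, the responses of the 2 genotypes had a Pearson r of −0.14 and a Spearman rho of 0.19, a description across genes that are not independent replicates. Over all 9611 genes r was 0.04 and rho 0.03.

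**Figure D2:**
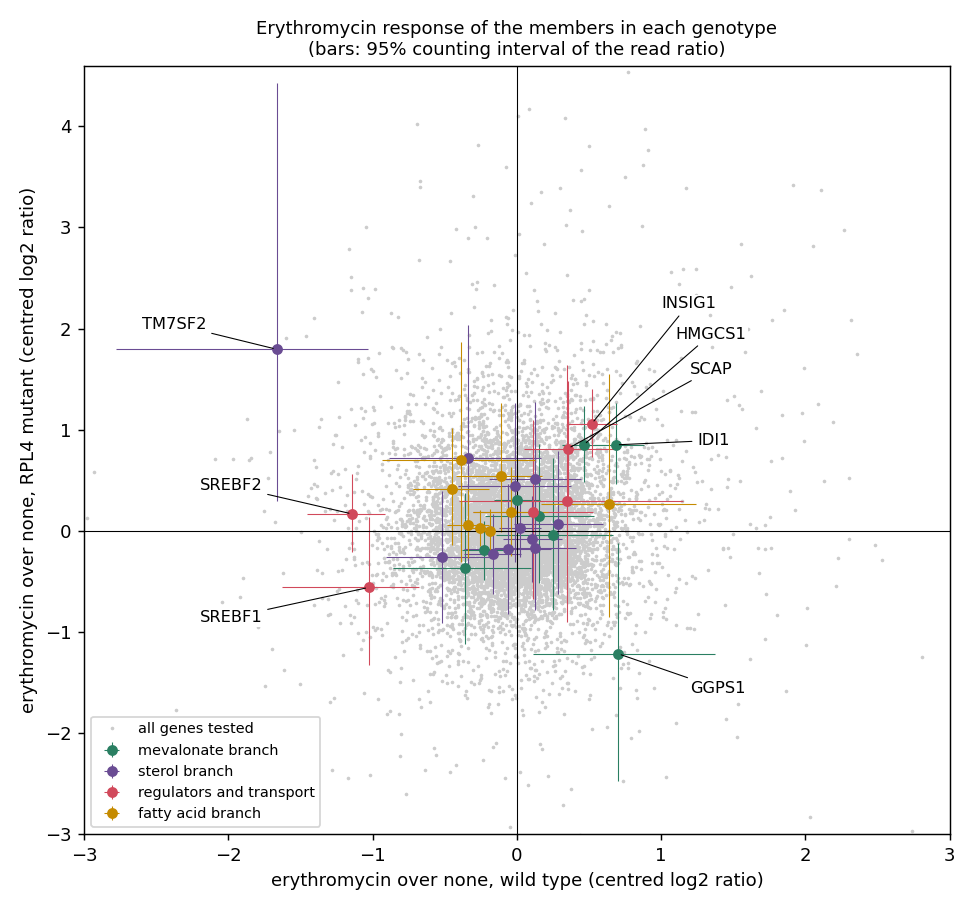
Centred log2 ratio of erythromycin over none in wild type (horizontal) against RPL4 mutant (vertical) for the 33 members in colour, with 95% counting intervals as bars, over all genes tested in grey; genes beyond the axis limits are not drawn. HMGCS1, IDI1, INSIG1 and SCAP lie at the upper right with intervals clear of 0 on both axes, SREBF1 and SREBF2 lie left of 0, and TM7SF2 and GGPS1 lie in opposite corners.

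The effect of erythromycin over both genotypes was tested with limma in an additive model with 1 residual degree of freedom. By this test 0 of 33 members passed at an adjusted p of 0.05, where 0.25% of genes passed as higher (24) and 0.0104% as lower (1). INSIG1 had a log2 effect of 0.79 (SE 0.219, limma adjusted p = 0.277), with higher values in 2 of 2 genotypes. IDI1 had 0.77 (SE 0.219, limma adjusted p = 0.306) and HMGCS1 0.66 (SE 0.233, limma adjusted p = 0.566), both also higher in 2 of 2 genotypes. SREBF1 had −0.79 (SE 0.363, limma adjusted p = 0.788), lower in 2 of 2. These 4 were the members with an unadjusted p under 0.05 in limma, 3 higher and 1 lower, where 3.79% and 2.4% of all genes were. The p-values rest on how far the 2 genotypes differ in their response. Each gene's error is drawn toward that of all genes of like level, so it is largely not the gene's own. No group had a second culture, so spread between cultures is not measured.

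Among the members, the genotypes differed most in their response to the drug for TM7SF2, GGPS1 and SREBF2. For SREBF2 the mutant response exceeded the wild type response by a log2 difference of 1.30. For TM7SF2 it did so by 3.46, and for GGPS1 it was below it by a log2 difference of −1.92. HSD17B7 (1.06), ELOVL6 (1.08), FADS2 (0.86) and ACACA (0.65), the acetyl-CoA carboxylase, completed the 7 members past 1.5-fold. Of the 7, 6 were higher, where 18.8% of genes were, and 1 was lower, where 15.1% were. Together that is 21.2% of the members, where 33.9% of all genes were past it, and at 2-fold 5 of 33, where 13.9% were. Above 0 were 22 of 33, where 50% of genes were. No test of these differences is possible with 1 library in each group.

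Mutant and wild type cells that had received no erythromycin were compared next, which asked how the altered ribosome protein bears on these genes. Of the 8 fatty acid genes SCD and FADS2 were past 1.5-fold lower in the mutant, as was HMGCS1, and ACLY and FASN had intervals below 0 without reaching 1.5-fold. SCD was at 296 RPKM in wild type and 182 RPKM in the mutant (−0.67 [−0.96, −0.40]). FADS2 was at 78.8 and 47.1 RPKM (−0.71 [−1.24, −0.23]), and ACLY at 194 and 132 RPKM (−0.53 [−0.73, −0.35]). FASN was at 110 and 89.8 RPKM (−0.26 [−0.42, −0.12]). The 4 intervals lay below 0, and 7 of the 8 fatty acid genes were below 0, with a median of −0.49. FADS1, the desaturase whose gene lies beside and overlaps FADS2, was the exception at 60.9 and 74.7 RPKM (0.32 [−0.09, 0.71]). SCD, FADS2, ACLY and FASN also had intervals below 0 for erythromycin over none in wild type. Both comparisons share the untreated wild type library, so they are not separate results.

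HMGCS1 was at 147 RPKM in untreated wild type and 84.7 RPKM in the untreated mutant, on 680 and 80 reads (−0.76 [−1.12, −0.43]). The same 80 reads enter its erythromycin ratio in the mutant. ACAT2, the thiolase that opens the pathway, was at 202 and 159 RPKM (−0.32 [−0.62, −0.03]). The later genes FDPS, IDI1 and MVD had intervals that span 0 and overlap that of ACAT2, for MVD only narrowly. Their difference from ACAT2 was not tested. FDPS was at 228 and 217 RPKM (−0.05 [−0.30, 0.19]), IDI1 at 154 and 137 RPKM (−0.14 [−0.52, 0.23]) and MVD, which makes isopentenyl diphosphate, at 26.9 and 39.9 RPKM (0.58 [−0.06, 1.21]). Of the 11 sterol genes 10 were below 0, with a median of −0.19, yet 1, TM7SF2 (−1.85 [−4.41, −0.48]), had an interval clear of 0. All 6 regulators had intervals that span 0, with SREBF2 at 0.03, INSIG1 at −0.03, SCAP at 0.07, SREBF1 at 0.18, STARD4 at −0.19 and INSIG2 at 0.60.

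At least 1.5-fold lower in the untreated mutant were 5 of 33 members (15.2%), where 10.4% of all genes were. At least 1.5-fold higher were 2 (GGPS1 and INSIG2), where 13.3% of all genes were. Either way that is 7 of 33 (21.2%), where 23.7% of all genes were, and at 2-fold 2 of 33, where 8.6% were. The 5 lower members were TM7SF2, HMGCS1, HSD17B7, FADS2 and SCD. The members' median was −0.14, with 10 of 33 above 0, where 50% of genes were. The counting interval lay below 0 for 7 members (21.2%), where it did for 9.3% of genes, and above 0 for 1, GGPS1, where it did for 9.5%.

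With erythromycin in both, SREBF2 and SREBF1 were past 1.5-fold higher in the mutant, and INSIG1 and SCAP had intervals above 0 without reaching 1.5-fold. SREBF2 was at 18.3 RPKM in wild type and 49.1 RPKM in the mutant (1.31 [1.04, 1.68]). Without the drug SREBF2 was at 41.9 RPKM in wild type and 42.0 RPKM in the mutant. This ratio, the wild type response and the difference of responses thus share 1 low value, that of wild type with erythromycin. SREBF1 was at 5.98 and 10.3 RPKM (0.63 [0.07, 1.35]), INSIG1 at 281 and 413 RPKM (0.49 [0.30, 0.69]) and SCAP at 17.1 and 26.0 RPKM (0.51 [0.16, 0.90]). TM7SF2 was at 4.67 and 16.8 RPKM (1.59 [0.76, 2.85]), and FADS1 at 58.5 and 88.2 RPKM (0.52 [0.21, 0.85]). These 6 had intervals above 0 (18.2%), where 16.1% of genes did. The regulators' median was 0.52, with 5 of 6 above 0. INSIG2 was at 0.52 [−0.35, 1.41], and STARD4, a sterol carrier, was the exception at −0.14. HMGCS1 (−0.39 [−0.61, −0.19]), SCD (−0.29 [−0.52, −0.06]) and ACLY (−0.37 [−0.53, −0.22]) had intervals below 0 here as they did without the drug. SC5D (−0.55), NSDHL (−0.47) and CYP51A1 (−0.31), enzymes between lanosterol and cholesterol, also had intervals below 0. Intervals below 0 numbered 6 of 33 in all, where 16.9% of genes had one. Past 1.5-fold were 3 higher members (TM7SF2, SREBF2 and SREBF1), where 16.8% of genes were, and 1 lower (GGPS1), where 11.3% were. Either way that is 4 of 33, where 28.2% of genes were, and at 2-fold 2 of 33, where 9.3% were. Above 0 were 17 of 33, where 50% of genes were.

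**Figure D3:**
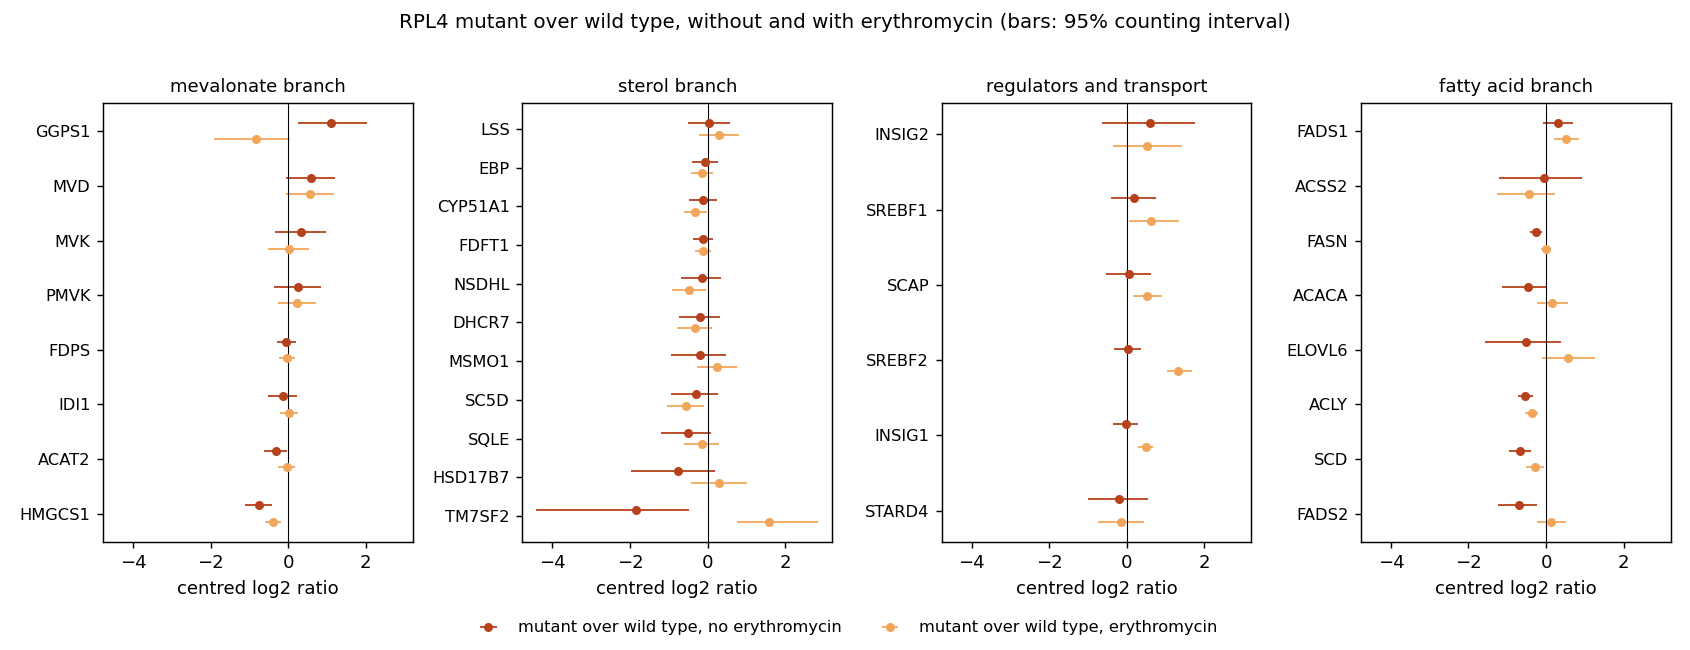
Centred log2 ratio of RPL4 mutant over wild type for each member, without erythromycin (dark) and with it (light), with 95% counting intervals as bars. HMGCS1, SCD and ACLY lie below 0 in both treatments, and SREBF2 and INSIG1 lie at 0 without the drug and above it with the drug.

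Over both treatments, limma passed 0 of 33 members for the mutant at an adjusted p of 0.05, where 1.69% of genes passed as higher and 0.281% as lower. HMGCS1 had a log2 effect of −0.57 (SE 0.233, limma adjusted p = 0.308) and SCD −0.48 (SE 0.219, limma adjusted p = 0.388), each lower in 2 of 2 treatments. SREBF2 had 0.68 (SE 0.315, limma adjusted p = 0.398), which rests on the erythromycin libraries. These 3 were the members with an unadjusted p under 0.05, 1 higher and 2 lower, where 6.91% and 5.54% of genes were. RPL4 itself fell by 0.72 in this fit (limma adjusted p = 0.0176).

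Summed by branch, the fatty acid genes took the largest share of footprints in each library. They took 0.210% of all reads in untreated wild type (95% Wilson interval 0.205% to 0.216%) and 0.177% with erythromycin (0.172% to 0.183%). In the mutant they took 0.157% (0.147% to 0.167%) without and 0.173% (0.165% to 0.181%) with the drug, so untreated wild type stood above the other libraries beyond counting error. The mevalonate genes took 0.101% without and 0.114% with the drug in wild type, and 0.0880% and 0.111% in mutant cells, higher with the drug in both genotypes. HMGCS1 and IDI1 carried this difference, with 0.0361% and 0.0523% in wild type and 0.0250% and 0.0469% for the mutant. The other 6 mevalonate genes took 0.0650% and 0.0614%, against 0.0630% and 0.0640%, with overlapping Wilson intervals within each genotype. This split was chosen after the values were seen. The sterol genes took 0.0995% and 0.0962% in wild type, against 0.0865% and 0.0907% for the mutant. Regulators took 0.0452%, 0.0433% and 0.0453% in the first 3 libraries and 0.0703% (0.0652% to 0.0757%) in the mutant with erythromycin. In the order of libraries, INSIG1 gave 489 of 1339, 598 of 1107, 96 of 274 and 342 of 698 of these reads. SREBF2 gave 426, 160, 87 and 167, and SCAP 152, 168, 32 and 99. The part of each gene in the higher share was not tested.

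**Figure D4:**
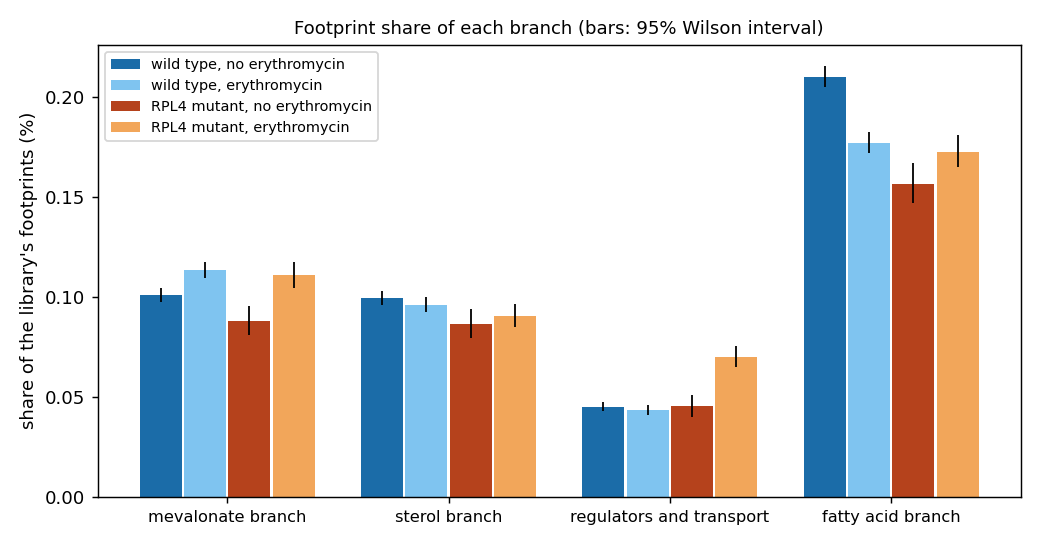
Share of each library's footprints, in percent, taken by the members of each branch, with 95% Wilson intervals as error bars. The fatty acid branch is highest in untreated wild type at 0.210%, and the regulators are highest in the mutant with erythromycin at 0.0703%.

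For 13 of 33 members, all 4 counting intervals included 0. The share of all genes tested for which this held was not counted. Such intervals do not show a held level. Among the 13, HSD17B7, ELOVL6 and INSIG2 were past 1.5-fold in at least 1 comparison, with wide intervals. In the mevalonate branch the members of this count were MVK and PMVK, the kinases that phosphorylate mevalonate, and MVD. MVK was at 29.2, 34.5, 36.1 and 36.3 RPKM in the order of libraries given above, and PMVK at 70.5, 77.7, 82.9 and 95.6 RPKM. In the sterol branch they were FDFT1, SQLE, the squalene epoxidase, MSMO1, HSD17B7, EBP and DHCR7, the reductase of the last step. FDFT1 was at 228, 228, 207 and 219 RPKM, EBP at 236, 207, 222 and 196 RPKM, DHCR7 at 48.4, 45.8, 41.7 and 38.1 RPKM, and MSMO1 at 46.3, 45.3, 39.4 and 55.9 RPKM. SQLE was at 33.6, 36.3, 23.0 and 34.4 RPKM, on 24 reads in the untreated mutant. INSIG2, STARD4, ACACA and ELOVL6 were the others, and STARD4 was at 56.2, 60.2, 48.2 and 57.0 RPKM. For FDFT1 each interval lay within 0.37 of 0 on the log2 scale, while for INSIG2, on 9 reads in the untreated mutant, intervals reached 1.75, so that equal status in this count does not mean equal precision. LSS, the lanosterol synthase, was at 26.7, 18.2, 27.1 and 23.3 RPKM and had 1 interval clear of 0, in wild type with erythromycin.

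Some members share sequence with other genes, and the way reads were assigned is not given in the sources used here. In GENCODE 29 an exon of another gene overlaps the coding sequence of 9 members, among them SREBF2 and IDI1 (antisense transcripts SREBF2-AS1 and IDI2-AS1), GGPS1 (TBCE, same strand) and FADS1 with FADS2. FDPS, CYP51A1, HSD17B7, SCD and FADS2 have named pseudogene copies. Reads of these genes may have been split or merged.

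Further genes of lipid synthesis, sterol traffic and SREBP processing were counted in the same way. Of 30 listed genes 28 were tested, and with erythromycin 0 were at least 1.5-fold higher and 3 lower in wild type, where 6.29% and 6.52% of all genes were. In the mutant 2 were higher and 4 lower, where 15.4% and 10.7% of all genes were. MECR, a reductase of mitochondrial fatty acid synthesis, was lower in both genotypes. Wild type had 25.2 RPKM without and 13.9 RPKM with the drug, and the mutant 42.8 and 24.2 RPKM. Without the drug 2 of 28 were at least 1.5-fold higher in the mutant and 4 lower, where 13.3% and 10.4% of all genes were. With the drug 4 were higher and 4 lower, where 16.8% and 11.3% were. MECR was also higher in the mutant in both treatments (0.76 [0.12, 1.41] and 0.69 [−0.03, 1.47]). So was LPCAT3, a lysophospholipid acyltransferase (0.86 [0.17, 1.58] and 0.59 [−0.06, 1.29]). With the drug both intervals span 0. SOAT1, which esterifies cholesterol, was lower in the mutant in both (−0.64 and −0.70). TMEM97, a sterol-regulated membrane protein, was at 362, 239, 265 and 336 RPKM in the order of libraries. For the drug limma passed 0 of the 28, with 3 at an unadjusted p under 0.05, where 3.79% of all genes were at such a p as higher and 2.4% as lower. For the mutant it passed 1 of 28, where 1.69% of all genes passed as higher and 0.281% as lower. At an unadjusted p under 0.05 for the mutant were 5 of 28, where 6.91% and 5.54% of all genes were. That gene was ACSL4, which activates polyunsaturated fatty acids. It fell by 1.24 over both treatments (limma adjusted p = 0.0404). Its levels were 29.5 RPKM without and 34.6 RPKM with the drug for wild type, against 10.1 and 17.0 RPKM for the mutant. This call ended with no variance trend, with no term for treatment and under the stricter filter of 20 RPKM.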

How the data were processed

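Ribosome-protected RNA was sequenced from HEK293 cells in 4 groups with 1 library each. The authors deposited RPKM per Ensembl transcript, listing only transcripts above 0, so an absent transcript was read as 0. Cutadapt, STAR and GRCh38 are listed, without roles or versions, per the submitters' processing notes. The read counter is not given in the sources used here, nor is the annotation. Of 16292 transcripts, 16172 were matched to GENCODE 29. RPKM times coding length (stop codon included) gave whole reads within 0.01 for between 99.2% and 99.3% of the matched transcripts, which gave the library totals; the recovered reads made up 97.3% to 98.4% of them.

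Values were analysed as log2(RPKM + 1), with 1 transcript a gene and a mean of at least 5 RPKM, so that fold changes of low genes are understated. Ratios were centred on the median gene. Effects over both arms were fitted with limma 3.58.1 in R 4.3.3 (additive model, variance trend, Benjamini-Hochberg adjustment over all genes), after a test on simulated data. Read ratios have exact conditional binomial intervals and levels exact Poisson intervals at 95%. Replicates were not available, so p-values measure only the spread between these libraries. The rule for named genes takes all 33 members and, from 3 further lists, genes passing limma or past 1.5-fold alike in both arms. A few others were chosen after their values were seen (TMEM97 and, in the closing section, MYLIP and the genes that use isoprenoids). The members and lists were chosen with earlier results of these data known. Alternatives were other pseudocounts (0.1 and 5), filters, scalings, models and a 2-fold threshold.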

Additional observations from a re-analysis of the deposited data

Results flagged for a closer look

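Erythromycin responses that went opposite ways in the 2 genotypes, with counting intervals on opposite sides of 0, were found for TM7SF2 and GGPS1. That is 2 of 33 members (6.06%), where 2.91% of genes tested did so. For TM7SF2 the mutant response minus the wild type response was 3.46 on the log2 scale, with 64, 15, 3 and 21 reads in wild type without and with erythromycin and in the mutant without and with it. For GGPS1 it was −1.92, with 38, 54, 17 and 12 reads in that order. Neither difference was tested, since no group has a second library. Both members are among the lowest in reads, and the part of depth in these differences was not tested.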

How the results depend on the processing

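No paired analysis was possible because each group has 1 library, and for the same reason no library could be left out. Members past 1.5-fold numbered 6 (erythromycin, wild type), 8 (erythromycin, mutant), 7 (mutant, no drug), 4 (mutant, drug) and 7 (difference of responses). At 2-fold they numbered 3, 3, 2 and 2 in the first 4 comparisons, where 3.27%, 9.61%, 8.60% and 9.30% of all genes were, and 5 in the last. Under a filter of 20 RPKM the first was 3, where fewer members are tested, and without centring the fourth was 7. Of 32 calls of a member in a comparison, 27 held with a pseudocount of 5 RPKM, which ended those of GGPS1 and ACSS2 in wild type, INSIG2 in the untreated mutant, SREBF1 in the mutant with the drug and ACACA in the difference. No called value changed sign under the 7 settings of pseudocount, filter, scaling and transcript. Limma passed 25 genes for erythromycin and 189 for the mutant. With a pseudocount of 0.1 RPKM it passed 68 and 285, with no filter 98 and 340, with no variance trend 0 and 91, and with no term for the other factor 0 and 54. With a mean of at least 20 RPKM it passed 42 for erythromycin and with the trimmed mean 49. Members passing numbered 0 in every limma setting run. The cause of these shifts was not tested. Without the 20 most-read transcripts, by construction, shares were larger. In wild type without and with erythromycin and the mutant without and with it, all members took 0.502%, 0.474%, 0.423% and 0.489%. The mevalonate branch took 0.111%, 0.125%, 0.0987% and 0.122%, the sterol branch 0.110%, 0.106%, 0.0970% and 0.0996%, and the fatty acid branch 0.232%, 0.195%, 0.176% and 0.190%. Regulators took 0.0497%, 0.0477% and 0.0772% in the first, second and last. The number of reads in the untreated mutant limits what can be resolved there.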

Other observations

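Genes that use isoprenoids and genes of sterol efflux were also looked at. Of 11 genes for prenyl transfer, dolichol and ubiquinone side chains, 10 were tested, and their median log2 ratio for erythromycin was −0.01 in wild type and 0.42 in the mutant, beside 0 for all genes. In the mutant 4 of the 10 were at least 1.5-fold higher with the drug, where 15.4% of all genes were. In wild type 0 were, where 6.29% were. The mutant intervals of all 4 span 0: NUS1 (0.63 [−0.03, 1.35]), COQ2 (0.88 [−0.40, 2.57]), PDSS1 (0.69 [−0.31, 1.87]) and TRIT1 (0.61 [−0.20, 1.53]). Without the drug 4 of the 10 were at least 1.5-fold lower in the mutant than in wild type, where 10.4% of all genes were. The median of the 10 was −0.35. RABGGTB (−0.76 [−1.33, −0.25]) and DHDDS (−0.87 [−1.95, −0.008]) had intervals below 0, and those of COQ2 and PDSS1 span 0. COQ2 and PDSS1 are in both sets of 4, and both comparisons share the untreated mutant library. NUS1, a subunit of the enzyme that makes dolichol chains, was at 39.0 and 53.7 RPKM in wild type without and with erythromycin and at 48.8 and 78.7 RPKM in the mutant. COQ2, which prenylates the ubiquinone ring, was at 16.2 and 13.9 RPKM in wild type and at 7.84 and 15.9 RPKM in the mutant. Limma passed 0 of the 10 for either factor, with 0 (erythromycin) and 1 (mutant) at an unadjusted p under 0.05. Of 5 genes around the liver X receptor, 2 were tested. MYLIP, a ligase that the receptor induces, was at 14.4 and 11.4 RPKM in wild type and at 7.42 and 18.1 RPKM in the mutant. Its erythromycin ratio in the mutant was 1.13 [−0.10, 2.81], with an interval that spans 0.

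MID1IP1, a partner of acetyl-CoA carboxylase, was listed at 0 in the untreated mutant and at 17.7 RPKM in untreated wild type. A level of 3 reads in the untreated mutant library is 8.99 RPKM. Without the drug, the upper end of the gene's 95% counting interval, mutant against wild type, was −0.56 on the log2 scale. With erythromycin MID1IP1 was at 7.80 RPKM in wild type and 3.65 RPKM in the mutant. That ratio of mutant over wild type was −0.98 [−4.37, 1.04], with an interval that spans 0. Erythromycin over none in wild type was −1.07 [−2.32, −0.12].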
